A study of Homo sapiens with 12 samples.

Results

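Oxidative phosphorylation is carried out by 5 protein complexes of the inner mitochondrial membrane, and most of their subunits are encoded by nuclear genes. The genes described here were chosen by symbol: names that begin NDUFA, NDUFB, NDUFC, NDUFS or NDUFV for complex I, SDHA to SDHD for complex II, UQCR names and CYC1 for complex III, COX4 to COX8 names for complex IV and ATP5 names for complex V, with pseudogenes left out and at least 1 read in the coding sequence (CDS) required in RNA-seq or Ribo-seq. This gave 89 genes of 16451 symbols with a CDS read: 40 for complex I, 4 for complex II, 10 for complex III, 14 for complex IV and 21 for complex V. The name rule also took in a few genes that are not core subunits, such as ATP5IF1, which encodes the inhibitor of the ATP synthase, and the readthrough genes ATP5MF-PTCD1 and NDUFC2-KCTD14. NDUFA4 was counted with complex I by its name, although its protein is known as a subunit of complex IV. COX4I2, COX6A2 and COX8C, isoforms known from other tissues, had no CDS read in any library. The mitochondrially encoded subunits were not analysed here.

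The cells were IMR90, normal human fibroblasts from fetal lung, either proliferating (Pro) or passaged to replicative exhaustion (Sen), with 3 independent lysates per state. The labels name replicative exhaustion and no other treatment, and no genetic change, and they do not say which of the IMR90 isolates in the study each lysate came from. The deposited names of the proliferating RNA-seq tables, and of no other tables, carry a tag that resembles the abbreviation of a solvent. The labels do not explain it, so whether these lysates had a vehicle is not known. Each lysate, made in a buffer with cycloheximide, gave a Ribo-seq library of ribosome-protected fragments and, from a part kept aside, an RNA-seq library. The cells are 1 fibroblast type grown in culture, so the values speak for that setting and not for other cell types.

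Complex I takes electrons from NADH and complex II takes them from succinate. Both pass them to ubiquinone, complex III passes them on to cytochrome c and complex IV to oxygen. Complexes I, III and IV pump protons, and complex V uses the proton gradient to make ATP. The nuclear-encoded subunits are made by ribosomes in the cytosol and imported, and their supply has to meet that of the subunits made inside the mitochondrion. Senescent cells are known for altered mitochondria, often more abundant and less efficient.

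Below, mRNA means the RNA-seq reads on the 5′ UTR, CDS and 3′ UTR of a gene, and RPF means its Ribo-seq reads on the CDS. Levels are CPM, reads scaled to a common library size with TMM factors, given for replicates 1, 2 and 3 in that order. Fold changes are log2 of senescent over proliferating with their standard error (SE), from edgeR's quasi-likelihood test on all genes kept by a filter on low counts. A gene was called higher or lower at a Benjamini-Hochberg adjusted p under 0.15, the 15% false discovery rate of the study's methods. Translation efficiency (TE) is the change in RPF that is not matched by mRNA, tested as an interaction over all 12 libraries with the lysate as a block. A fold change in a bulk library is a share of its reads: fewer transcripts per cell and a larger total of other transcripts cannot be told apart.

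The RNA-seq libraries held 7895293 to 14133378 mRNA reads. The Ribo-seq libraries were shallower and unequal: 54421, 685061 and 1718521 CDS reads in Pro 1 to 3 and 1672807, 54708 and 583798 in Sen 1 to 3. The 2 shallow libraries, Pro 1 and Sen 2, also stood apart in where their reads fell, with 77.5% and 40.6% of mRNA-region reads in the CDS over all symbols, against 81.3% to 95.8% in the other 4. For the 89 genes themselves the CDS share was higher, 95.5% and 89.8% in the shallow libraries and 98.2% to 98.6% in the others. In a shallow library 3 reads are worth about 55 CPM, so a member there often rests on few reads, and the fits give most weight to the 4 deep libraries. The fibroblast markers COL1A1, COL1A2, COL3A1, VIM, THY1, PDGFRB, DCN and LUM were all expressed. Epithelial and endothelial markers were at most 1.03 mRNA CPM in any library, and no gene of either list passed the filter. Of the leukocyte markers, CD68, a lysosomal protein, was at 18.9 to 21.0 mRNA CPM in proliferating and 31.1 to 34.1 in senescent libraries and was higher in both layers (0.70 ± 0.09, adjusted p = 8.25e-07 in mRNA and 0.71 ± 0.35, adjusted p = 0.094 in RPF), while PTPRC was at most 0.171 mRNA CPM and CD3E was not matched. Of the muscle markers, ACTN2 was not called in mRNA (0.14 ± 0.13, adjusted p = 0.328) and was higher in RPF (1.05 ± 0.23, adjusted p = 0.000112) and TE (0.91 ± 0.29, adjusted p = 0.0617), while MYH7 and CKM were at most 0.293 mRNA CPM. The part of these markers in the results was not tested. CDKN1A, the p21 cell-cycle inhibitor, was higher in the senescent mRNA (log2 fold change 1.60 ± 0.07, adjusted p = 2.65e-14) and MKI67, a marker of cycling cells, was lower (-2.30 ± 0.08, adjusted p = 2.31e-16).

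The coding sequences of 3 small subunits called in TE, defined above, are shown. They were picked from the TE calls with a short coding sequence, as the largest falls and the largest rise among these. Base composition, in which they differ widely, was not a criterion. COX7B and NDUFB3 had the largest falls in TE, and COX8A had the smallest of 3 rises, which did not pass with each library's trend on GC content removed (0.25, adjusted p = 0.565). The largest rise, that of NDUFA6, has an intermediate GC content (52.3%), and its call held with the trend removed. The 3 sequences are printed 5′ to 3′ with the stop codon, in lower case, with the last base of a codon in capitals where it is G or C. The sequences are GENCODE release 44 transcripts placed on GRCh37, and the genes lie on the + strand at chrX:77154937-77162873 (COX7B), chr2:201936156-201950473 (NDUFB3) and chr11:63742092-63744015 (COX8A).
COX7B: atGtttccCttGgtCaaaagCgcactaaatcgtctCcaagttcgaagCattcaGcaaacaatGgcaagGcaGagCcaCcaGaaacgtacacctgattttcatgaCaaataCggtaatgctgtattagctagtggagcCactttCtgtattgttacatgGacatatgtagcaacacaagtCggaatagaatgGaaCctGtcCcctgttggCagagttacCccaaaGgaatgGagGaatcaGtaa
NDUFB3: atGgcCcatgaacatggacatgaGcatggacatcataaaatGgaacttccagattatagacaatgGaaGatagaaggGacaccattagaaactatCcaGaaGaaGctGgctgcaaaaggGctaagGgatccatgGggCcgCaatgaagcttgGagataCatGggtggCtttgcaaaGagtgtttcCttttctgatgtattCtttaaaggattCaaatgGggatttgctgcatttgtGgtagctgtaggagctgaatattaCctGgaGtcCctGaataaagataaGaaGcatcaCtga
COX8A: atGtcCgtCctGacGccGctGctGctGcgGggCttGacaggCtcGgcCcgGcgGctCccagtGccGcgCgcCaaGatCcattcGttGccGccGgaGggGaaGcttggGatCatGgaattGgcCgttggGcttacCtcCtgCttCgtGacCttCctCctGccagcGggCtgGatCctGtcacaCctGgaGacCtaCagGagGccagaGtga
Of the codons before the stop, 30 of 80 end in G or C in COX7B (37.5%), 35 of 98 in NDUFB3 (35.7%) and 59 of 69 in COX8A (85.5%).

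In each layer more of the subunit genes were not called than were called changed. Of the 89 genes, 87 could be tested in mRNA and 84 in RPF and TE. In mRNA 28 were higher and 13 lower in senescent cells, 41 of 87, while 73.6% of all 12787 genes tested were called changed (36.6% higher and 37% lower). In RPF 14 were higher and 22 lower, 36 of 84, while 54.4% of all 7521 genes tested were called (27.5% higher and 26.9% lower). The SD of the log2 fold changes over members was 0.35 in mRNA and 0.40 in RPF, against 0.92 and 0.87 over all genes tested. The median log2 fold change was 0.08 in mRNA and -0.05 in RPF, beside medians of -0.01 and 0.00 over all genes. The 2 groups of 3 libraries did not overlap for 29 members in mRNA and 18 in RPF, where 67.8% and 32.5% of all genes had groups that did not overlap.

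The direction of the mRNA counts depended on the scaling. With library totals in place of TMM factors, which lowered the median of all genes by 0.11 in mRNA and 0.14 in RPF, 15 members were higher and 28 lower in mRNA, and 10 were higher and 34 lower in RPF. Of all genes, 74.7% were then called in mRNA and 56.2% in RPF. DESeq2 called 26 higher and 12 lower in mRNA (68.2% of all genes called). In RPF it called 0 higher and 4 lower (15.5% of all genes called), with 1 higher and 10 lower at an unadjusted p under 0.05. Most RPF calls were thus made by edgeR's test and not by DESeq2's.

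Measured as a share of reads, the 89 genes took 1.54%, 1.34% and 1.33% of CDS reads in the proliferating Ribo-seq libraries and 1.25%, 1.10% and 1.07% in the senescent ones. All senescent libraries lay below all proliferating ones, a ratio of means of 0.815. An exact two-sided permutation test gave p = 0.1, the smallest value that 3 against 3 libraries allow. In mRNA the shares were 0.865%, 0.840% and 0.830% against 0.825%, 0.881% and 0.741%, and the groups overlapped (exact permutation p = 0.7). By complex, the RPF share did not overlap between the states for complex III (0.168% ± 0.038 in proliferating and 0.123% ± 0.010 in senescent libraries, SD, n = 3) and complex V (0.504% ± 0.010 and 0.411% ± 0.030), each with an exact permutation p = 0.1. For complexes I, II and IV the groups overlapped, with ratios of senescent to proliferating means of 0.838, 0.923 and 0.799 (exact permutation p = 0.2 each). All these shares are of plain read totals, without TMM factors. The TMM factors of the Ribo-seq libraries were 1.10, 1.02 and 1.01 in Pro 1 to 3 and 0.918, 1.07 and 0.905 in Sen 1 to 3. A factor below 1 raises a scaled share, so the separation of the states depends on the scaling. Shares scaled by TMM factors were not tested.

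**Figure D1:**
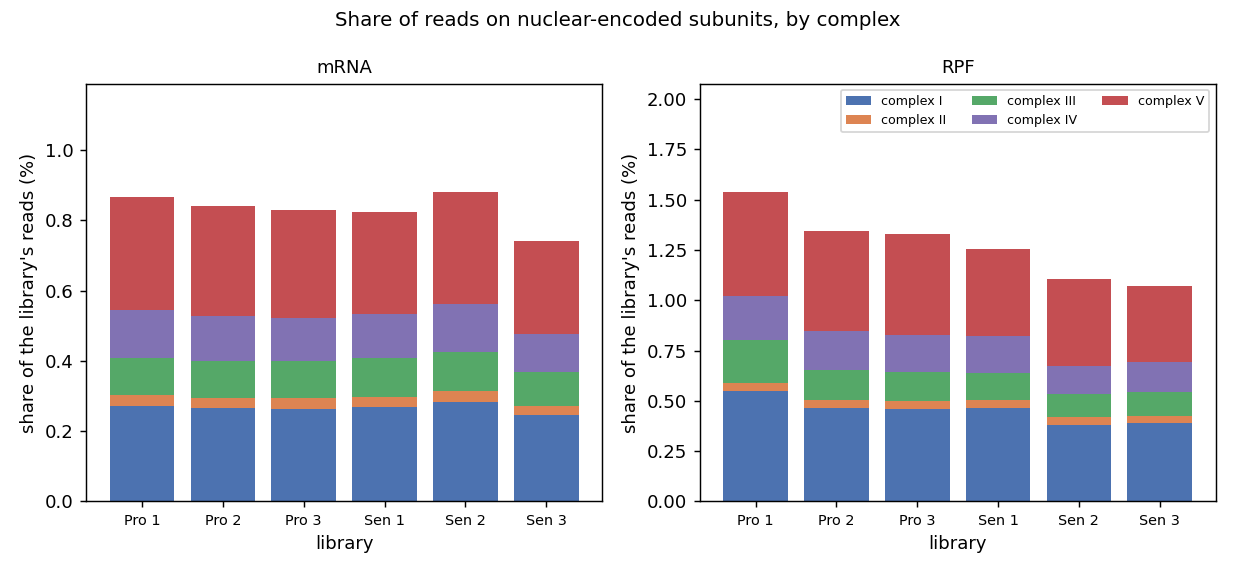
Stacked bars give the share of each library's reads that fell on the nuclear-encoded subunit genes, by complex, in percent of mRNA reads (left) and of RPF reads (right) for the 3 proliferating (Pro) and 3 senescent (Sen) libraries. The RPF bars run from 1.54% to 1.33% in the proliferating and from 1.25% to 1.07% in the senescent libraries, while the mRNA bars overlap between the states.

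By complex, the mRNA medians lay between 0.04 (complex II) and 0.12 (complex I). The RPF medians spread more: 0.06 for complex I, -0.02 for complex II, -0.16 for complex III, 0.04 for complex IV and -0.21 for complex V. In complex V 8 of 20 tested genes were lower and 3 higher in RPF, in complex I 9 of 39 were lower and 9 higher, in complex III 2 of 10 were lower and 1 higher, in complex IV 2 of 11 were lower and 1 higher, and in complex II 1 of 4 was lower. Over all genes tested in RPF, 27.5% were higher and 26.9% lower. Differences between complexes were not tested, and the members of a complex are not replicates of each other.

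**Figure D2:**
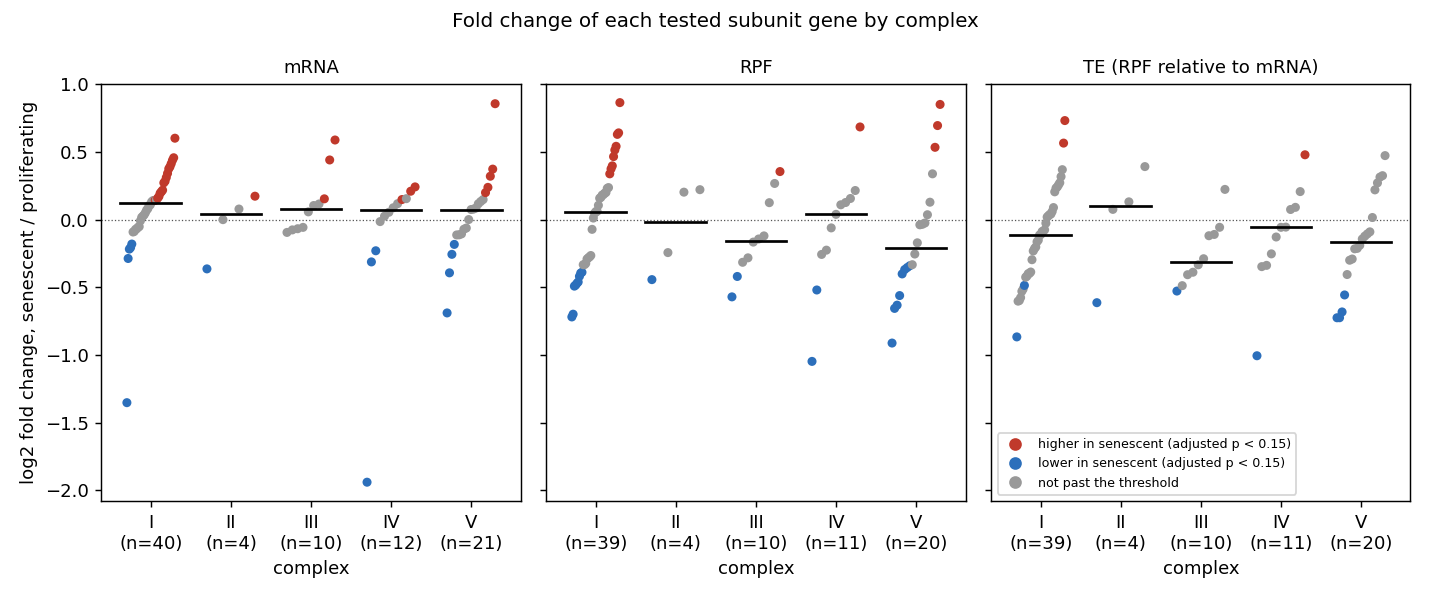
Each point is a tested gene, placed by complex, with its log2 fold change (senescent over proliferating) in mRNA, RPF and TE on the vertical axis. Black bars are medians, red and blue points passed the adjusted p threshold of 0.15 as higher or lower in senescent cells, and the lowest mRNA points are COX7A1 (complex IV) and NDUFA4L2 (complex I), both near the floor of detection.

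Complex I, with 39 of the 84 genes tested in RPF, had 9 called higher and 9 lower there, beside 27.5% and 26.9% of all genes. In the N module, which holds the site where NADH is oxidised, NDUFV1, the subunit that binds NADH and FMN, was at 81.8, 79.2 and 76.8 mRNA CPM in proliferating and 76.8, 70.6 and 75.8 in senescent libraries (log2 fold change -0.09 ± 0.07, adjusted p = 0.275). Its RPF level was 52.1, 96.5 and 91.2 against 145, 70.3 and 121 and was called higher (0.54 ± 0.19, adjusted p = 0.0146). The 2 deep senescent libraries lay above every proliferating library, and the shallow Sen 2, with 4 reads, lay among them. NDUFV2, its iron-sulfur partner, was at 295, 270.1 and 218 RPF CPM in proliferating and 199, 158 and 159 in senescent libraries, with no overlap, and fell (-0.42 ± 0.17, adjusted p = 0.0374). The mRNA of NDUFV2 was at 0.03 ± 0.09, adjusted p = 0.743. NDUFS1, the largest subunit, which carries iron-sulfur clusters, fell in both layers: in mRNA from 72.3, 73.6 and 75.5 to 65.8, 61.6 and 68.2 (-0.18 ± 0.07, adjusted p = 0.0358) and in RPF from 121, 199 and 194 to 153, 70.3 and 146 (-0.40 ± 0.17, adjusted p = 0.0556). In RPF NDUFV1 was thus called higher while NDUFV2 and NDUFS1 were called lower. With each library's trend on GC content removed, none of these RPF calls passed. NDUFV1 was then at 0.14 (adjusted p = 0.558), NDUFV2 at -0.21 (adjusted p = 0.291) and NDUFS1 at -0.19 (adjusted p = 0.376). The mRNA of NDUFV1 was called lower with that trend removed (-0.25, adjusted p = 0.00122). The RPF fall of NDUFS1 did not pass without Pro 2 or Pro 3 (adjusted p = 0.249 and 0.315), that of NDUFV2 without Pro 2 or Sen 3 (0.265 and 0.249), and the rise of NDUFV1 without Pro 3 or Sen 1 (0.152 and 0.389).

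The largest RPF rise of all 84 tested members was that of NDUFA6, an accessory subunit that binds an acyl carrier protein. Its RPF level was 191, 92.0 and 99.0 in proliferating and 184, 193 and 179 in senescent libraries (0.86 ± 0.18, adjusted p = 5.47e-05). The 2 deep proliferating libraries lay far below every senescent library, and the shallow Pro 1, with 11 reads, was within the senescent range. In mRNA NDUFA6 went from 60.3, 65.7 and 67.6 to 78.6, 80.3 and 62.9 (0.19 ± 0.09, adjusted p = 0.0585), a rise that did not pass without Pro 1, Sen 1 or Sen 2 (adjusted p up to 0.256). NDUFA1, a small membrane-anchored accessory subunit encoded on the X chromosome, was higher in both layers, at 0.41 ± 0.11, adjusted p = 0.0023 in mRNA and 0.64 ± 0.18, adjusted p = 0.00307 in RPF. Its RPF level was 121, 114 and 94.2 in proliferating and 182, 87.9 and 134 in senescent libraries, with Sen 2 (5 reads) the lowest of all 6. The RPF rise did not pass without Pro 3 or Sen 1 (adjusted p = 0.224 and 0.354). The largest mRNA rise in complex I was that of NDUFA2, an accessory subunit of the N module with a thioredoxin-like fold, from 31.6, 30.4 and 30.6 to 46.3, 48.4 and 45.5 (0.60 ± 0.08, adjusted p = 1.12e-06). Its RPF change was smaller and did not pass (0.18 ± 0.23, adjusted p = 0.546). NDUFB2, of the membrane arm, rose in mRNA (0.46 ± 0.10, adjusted p = 0.000411) and in RPF (0.34 ± 0.18, adjusted p = 0.125), where it did not pass without any 1 of Pro 1, Pro 2, Pro 3 and Sen 1 (adjusted p up to 0.62).

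The falls in complex I were led by small subunits of the membrane arm. NDUFB3 was at 104, 148 and 117 RPF CPM in proliferating and 76.4, 70.3 and 81.7 in senescent libraries, with no overlap (-0.72 ± 0.19, adjusted p = 0.00165), while its mRNA was at 45.5, 40.1 and 39.8 against 47.9, 51.9 and 37.5 (0.14 ± 0.10, adjusted p = 0.238). NDUFB6 was at 191, 179.6 and 167 against 117, 70.3 and 91.4 RPF CPM, again without overlap (-0.70 ± 0.18, adjusted p = 0.000899), and its mRNA change was -0.09 ± 0.09, adjusted p = 0.42. NDUFA9, which sits where the arms meet, fell in mRNA (-0.29 ± 0.08, adjusted p = 0.00423) and in RPF (-0.47 ± 0.20, adjusted p = 0.0453), the RPF fall not passing without Pro 3 or Sen 1 (adjusted p up to 0.631). Of the 22 genes of the membrane arm and its interface, 10 were higher and 2 lower in mRNA, and 6 were higher and 6 lower in RPF. Of the 10 N module genes 4 were higher and 2 lower in mRNA, and 2 were higher and 3 lower in RPF. Of the 5 Q module genes 1 was higher and 0 lower by edgeR in each layer. Over all genes tested, 36.6% were higher and 37% lower in mRNA, and 27.5% were higher and 26.9% lower in RPF.

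Complex II has 4 subunits and no mitochondrially encoded one. SDHA, the flavoprotein that oxidises succinate, fell in mRNA from 54.6, 53.7 and 62.2 in proliferating to 47.4, 42.2 and 43.2 in senescent libraries, with no overlap (-0.36 ± 0.08, adjusted p = 0.000625). In RPF it was at 69.4, 63.8 and 72.7 against 53.6, 87.9 and 66.1 (-0.24 ± 0.22, adjusted p = 0.387). SDHB, the iron-sulfur subunit, showed the other pattern, with an mRNA change of 0.08 ± 0.09, adjusted p = 0.476 and an RPF level of 139, 99.4 and 106 against 81.7, 105 and 64.2, called lower (-0.44 ± 0.20, adjusted p = 0.0612). The membrane anchors SDHC and SDHD were at 0.20 ± 0.17, adjusted p = 0.35 and 0.22 ± 0.20, adjusted p = 0.381 in RPF. In mRNA SDHC was higher (0.17 ± 0.07, adjusted p = 0.0448) and SDHD did not pass (adjusted p = 0.995). Without Sen 2 the mRNA rise of SDHC did not pass (adjusted p = 0.152), nor did the RPF fall of SDHB without Pro 3 or Sen 3 (0.279 and 0.27).

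In complex III 3 genes rose in mRNA, the small subunits UQCR11 and UQCR10 and, by less, the large core protein UQCRC1 (0.15 ± 0.07, adjusted p = 0.057). UQCR11 went from 103, 97.4 and 93.0 mRNA CPM in proliferating to 159, 143 and 138 in senescent libraries (0.59 ± 0.07, adjusted p = 5.13e-07), and UQCR10 from 70.9, 62.7 and 61.9 to 102, 92.2 and 71.2 (0.44 ± 0.10, adjusted p = 0.000569), neither with overlap. In RPF the changes of UQCR11 (0.27 ± 0.19, adjusted p = 0.249) and UQCR10 (0.12 ± 0.18, adjusted p = 0.609) did not pass. The large core proteins moved apart in RPF. UQCRC1 was at 347, 291 and 290.3 in proliferating and 408, 193 and 383 in senescent libraries (0.35 ± 0.16, adjusted p = 0.072), and UQCRC2 at 208, 273 and 250.4 against 200.3, 87.9 and 196 (-0.42 ± 0.17, adjusted p = 0.0354). UQCRB fell in RPF (-0.57 ± 0.20, adjusted p = 0.014), from 573, 240.4 and 199 to 186, 246 and 109, and Sen 2, with 14 reads, lay within the proliferating range. Without Sen 3 this fall did not pass (adjusted p = 0.273). The electron-carrying subunits UQCRFS1, the Rieske iron-sulfur protein, and CYC1, cytochrome c1, passed in neither layer, at -0.17 ± 0.18 and -0.14 ± 0.18 in RPF. The fall of UQCRC2 in RPF did not pass without Pro 2 or Pro 3 (adjusted p up to 0.236), and the rise of UQCRC1 did not pass when any 1 of the 4 deep libraries was left out (adjusted p = 0.227 to 0.434). With each library's trend on GC content removed, neither UQCRC1 (0.04, adjusted p = 0.865) nor UQCRC2 (-0.26, adjusted p = 0.17) passed in RPF. CYC1 and UQCRFS1 were then called lower in mRNA (-0.25, adjusted p = 0.00168 and -0.15, adjusted p = 0.0324). They were also called lower in RPF (-0.58, adjusted p = 0.00393 and -0.35, adjusted p = 0.0999).

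Complex IV held both the largest fall and one of the larger rises in RPF. COX7B, a small membrane subunit encoded on the X chromosome, was at 191, 145 and 104 RPF CPM in proliferating and 68.3, 35.2 and 42.8 in senescent libraries, with no overlap (-1.05 ± 0.21, adjusted p = 3.25e-05). The reads behind these values were 11, 98 and 174 against 102, 2 and 22. Its mRNA did not pass, at 66.0, 69.8 and 66.5 against 66.8, 80.6 and 57.9 (0.02 ± 0.09, adjusted p = 0.831). The fall passed without each library in turn (log2 fold change -1.52 to -0.86) and under DESeq2 (-1.34, adjusted p = 0.0189). The deposited RPF count of COX7B was not a whole number in 50.0% of libraries, so some of its reads were divided, and its relative COX7B2 shares an exact stretch of at most 26 bases with it. COX8A, another small membrane subunit, was at 312, 162 and 147 against 308, 105 and 219.7 RPF CPM (0.68 ± 0.18, adjusted p = 0.00142), with mRNA at 0.09 ± 0.09, adjusted p = 0.399. The rise came from the deep libraries: the shallow Pro 1 (18 reads) was the highest and Sen 2 (6 reads) the lowest of all 6, so that the plain means of the states, 207 and 211, were alike. Without the 2 shallow libraries the change was 0.84 (adjusted p = 0.00015), and it did not pass without Pro 3 or Sen 1 (adjusted p = 0.233 and 0.264). COX7C fell in mRNA without overlap (-0.31 ± 0.08, adjusted p = 0.00271) and was at -0.26 ± 0.17, adjusted p = 0.228 in RPF. COX4I1 and COX5B, common subunits of the enzyme, rose a little in mRNA (0.15 ± 0.07, adjusted p = 0.0704 and 0.21 ± 0.08, adjusted p = 0.025) and were at 0.11 ± 0.16 and -0.06 ± 0.17 in RPF, neither past the threshold. The mRNA rise of COX4I1 did not pass without Pro 2, Pro 3 or Sen 1 (adjusted p up to 0.255), and that of COX5B without Pro 3 (0.168).

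The isoform pairs of complex IV were dominated by the widely expressed form. COX7A2, that form of subunit 7A, was at 116, 112 and 100.3 mRNA CPM in proliferating and 94.5, 112 and 72.1 in senescent libraries (-0.23 ± 0.11, adjusted p = 0.0661), a fall that did not pass without Pro 1 or Sen 3 (adjusted p = 0.184 and 0.395). In RPF it fell without overlap, from 260.3, 234 and 227 to 179, 158 and 134 (-0.52 ± 0.17, adjusted p = 0.00917). COX7A1, the heart and muscle form, was barely expressed, at 2.20, 2.56 and 2.05 against 0.213, 1.03 and 0.366 mRNA CPM, and lower in senescent cells (-1.94 ± 0.36, adjusted p = 5.92e-05). Its RPF counts, 0 to 5 per library, were too few to test. COX7A2L, a related protein that joins complexes III and IV, was at -0.02 ± 0.08 in mRNA and 0.13 ± 0.21 in RPF. COX6A1 rose in mRNA (0.24 ± 0.08, adjusted p = 0.00941) and was at 0.16 ± 0.17, adjusted p = 0.479 in RPF, and COX6B1 was at 0.15 ± 0.11 and 0.21 ± 0.18, neither past the threshold. COX6B2, the testis form, had 2 to 7 mRNA reads in a library and was not tested. NDUFA4 passed in neither layer (0.05 ± 0.09 and 0.05 ± 0.16), while its hypoxia-induced relative NDUFA4L2, at 2.93, 3.08 and 2.61 against 0.958, 1.10 and 1.28 mRNA CPM, was lower (-1.35 ± 0.25, adjusted p = 5.29e-05) and had 1 RPF read in all.

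In complex V the F1 head shows how unevenly subunits of 1 enzyme could move. ATP5F1B, the catalytic β subunit, took the most RPF reads of the 89 genes and did not pass, at 1006, 1183 and 1267 RPF CPM in proliferating and 1174, 1020 and 1223 in senescent libraries (-0.03 ± 0.17, adjusted p = 0.917). ATP5F1A, the α subunit that alternates with it in the head, fell without overlap in both layers. Its mRNA went from 435, 431 and 415 to 364, 369 and 339 (-0.26 ± 0.07, adjusted p = 0.00266) and its RPF level from 902, 929 and 937 to 746, 598 and 692 (-0.40 ± 0.16, adjusted p = 0.04). In the central stalk, ATP5F1C (γ) fell in RPF from 191, 301 and 289.7 to 196, 176 and 194 (-0.56 ± 0.16, adjusted p = 0.00395) and ATP5F1E (ε) from 174, 178 and 161 to 117, 105 and 93.3 (-0.63 ± 0.18, adjusted p = 0.00258). Their mRNA changes did not pass (-0.11 ± 0.08 and 0.08 ± 0.09). ATP5F1D (δ) rose instead, in mRNA from 71.3, 80.9 and 81.6 to 99.0, 93.5 and 111 (0.37 ± 0.08, adjusted p = 0.000355) and in RPF from 278, 123 and 119 to 267, 141 and 192 (0.85 ± 0.18, adjusted p = 8.7e-05). As with COX8A, the shallow Pro 1 (16 reads) was the highest library for ATP5F1D RPF, and without the 2 shallow libraries the change was 0.99. The RPF fall of ATP5F1A did not pass when any 1 of the 4 deep libraries was left out (adjusted p = 0.164 to 0.253). With each library's trend on GC content removed, the RPF calls held but were smaller. ATP5F1D was then at 0.31 (adjusted p = 0.13), ATP5F1A at -0.34 (0.037), ATP5F1C at -0.31 (0.0964) and ATP5F1E at -0.42 (0.0385). The mRNA rise of ATP5F1D was then 0.14 (adjusted p = 0.0707).

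Among the other complex V genes, ATP5IF1, the inhibitor that blocks ATP hydrolysis by the enzyme, had the largest mRNA rise of all 87 tested members. It went from 75.5, 64.8 and 70.7 to 134, 128 and 119 mRNA CPM, with no overlap (0.86 ± 0.08, adjusted p = 2.7e-09), and was higher in RPF as well, at 156, 126 and 137 against 243, 123 and 192 (0.69 ± 0.17, adjusted p = 0.000651). The shallow Sen 2, with 7 reads, was its lowest RPF library. ATP5PF, the coupling factor 6 subunit of the peripheral stalk, fell in RPF from 104, 171 and 132 to 83.1, 123 and 58.3 (-0.91 ± 0.19, adjusted p = 8.46e-05), with the 2 deep senescent libraries lowest. Its mRNA change was -0.11 ± 0.09, adjusted p = 0.283. ATP5MD, a small subunit at the dimer interface, fell without overlap from 156, 177 and 171 to 127, 141 and 71.9 RPF CPM (-0.66 ± 0.18, adjusted p = 0.00237), with mRNA at 0.13 ± 0.10, not past the threshold. ATP5S, of low abundance, was lower in mRNA (-0.39 ± 0.19, adjusted p = 0.0734) and did not pass without Pro 3 or Sen 1 (adjusted p = 0.154 and 0.232). Its RPF counts were too few to test.

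The c ring of complex V is encoded by 3 genes, ATP5MC1, ATP5MC2 and ATP5MC3, whose products differ in the import signal and end in the same protein. The last 77 codons of the 3 coding sequences translate alike, and they are printed here without the stop codon to show how different the letters are that give 1 protein. Capitals again mark a codon's last base that is G or C. By GENCODE release 44 on GRCh37, the genes lie at chr17:46970127-46973233 (+ strand), chr12:54026510-54071192 (- strand) and chr2:176040986-176046438 (- strand).
ATP5MC1: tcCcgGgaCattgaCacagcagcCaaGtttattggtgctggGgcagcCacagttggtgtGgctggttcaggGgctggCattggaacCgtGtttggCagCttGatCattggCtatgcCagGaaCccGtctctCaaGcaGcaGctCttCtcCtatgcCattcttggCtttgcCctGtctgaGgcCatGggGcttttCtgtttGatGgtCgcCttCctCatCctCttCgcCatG
ATP5MC2: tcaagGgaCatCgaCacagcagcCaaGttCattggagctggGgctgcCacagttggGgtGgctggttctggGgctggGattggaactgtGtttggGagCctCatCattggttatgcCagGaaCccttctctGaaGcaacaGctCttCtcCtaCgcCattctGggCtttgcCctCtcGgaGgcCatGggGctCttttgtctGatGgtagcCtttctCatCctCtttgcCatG
ATP5MC3: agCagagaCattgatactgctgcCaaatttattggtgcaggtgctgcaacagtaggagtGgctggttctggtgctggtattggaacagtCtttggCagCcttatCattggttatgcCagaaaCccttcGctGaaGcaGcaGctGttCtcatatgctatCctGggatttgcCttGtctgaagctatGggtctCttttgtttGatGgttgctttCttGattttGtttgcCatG
ATP5MC1 and ATP5MC2 are identical at 204 of 231 bases (88.3%) and each of them matches ATP5MC3 at 185 of 231 (80.1%). The longest exact stretch that 2 of the whole coding sequences share is 17 bases. The deposited RPF counts were not whole numbers in 83.3% (ATP5MC1), 50.0% (ATP5MC2) and 66.7% (ATP5MC3) of libraries, so some of their reads were divided. Codons ending in G or C make up 63.6%, 61.0% and 39.0% of these 77.

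The 3 c ring genes moved differently. ATP5MC1 rose in mRNA from 53.8, 53.9 and 48.2 to 65.1, 74.6 and 54.2 (0.32 ± 0.10, adjusted p = 0.00616) and in RPF from 104, 107 and 101 to 175, 105 and 113 (0.53 ± 0.18, adjusted p = 0.0141). ATP5MC2 fell in mRNA from 192, 174 and 163 to 114, 122 and 91.2, the largest mRNA fall after those of the barely expressed COX7A1 and NDUFA4L2 (-0.69 ± 0.09, adjusted p = 8.55e-07). In RPF it fell without overlap, at 278, 219.6 and 197 against 188, 87.9 and 144 (-0.34 ± 0.17, adjusted p = 0.102). ATP5MC3 was at 0.07 ± 0.08, adjusted p = 0.411 in mRNA and -0.17 ± 0.16, adjusted p = 0.406 in RPF. The mRNA directions of ATP5MC1 and ATP5MC2 held without each library in turn, while in RPF the rise of ATP5MC1 did not pass without Pro 3 or Sen 1 (adjusted p = 0.207 and 0.768). The RPF fall of ATP5MC2 did not pass without the 2 shallow libraries (adjusted p = 0.179), nor without Pro 2, Pro 3, Sen 2 or Sen 3 alone (up to 0.412). The mean RPF level per kb of coding sequence was 255, 547 and 783 for ATP5MC1, ATP5MC2 and ATP5MC3 in proliferating and 321, 331 and 734 in senescent cells.

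Set side by side, the layers agreed in part. Of the 84 genes tested in both, 10 were called higher in both, 5 lower in both and 0 in opposite directions. Another 23 were called in mRNA only and 21 in RPF only, which does not show that the layers differed for them, and 25 in neither. The sign of the fold was the same for 56 of 84. The test of the difference itself is TE, where 3 members were higher and 9 lower, beside 9.37% of all 7473 genes called (4.88% higher and 4.48% lower). The states did not overlap in TE for 23 of 84 members, where 16.2% of all genes did not overlap. The TE median over members was -0.12, against -0.01 over all genes, and 55 of the 84 folds were below 0. DESeq2 called 0 of the 84 (0.375% of all genes called), with 2 lower and 0 higher at an unadjusted p under 0.05.

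**Figure D3:**
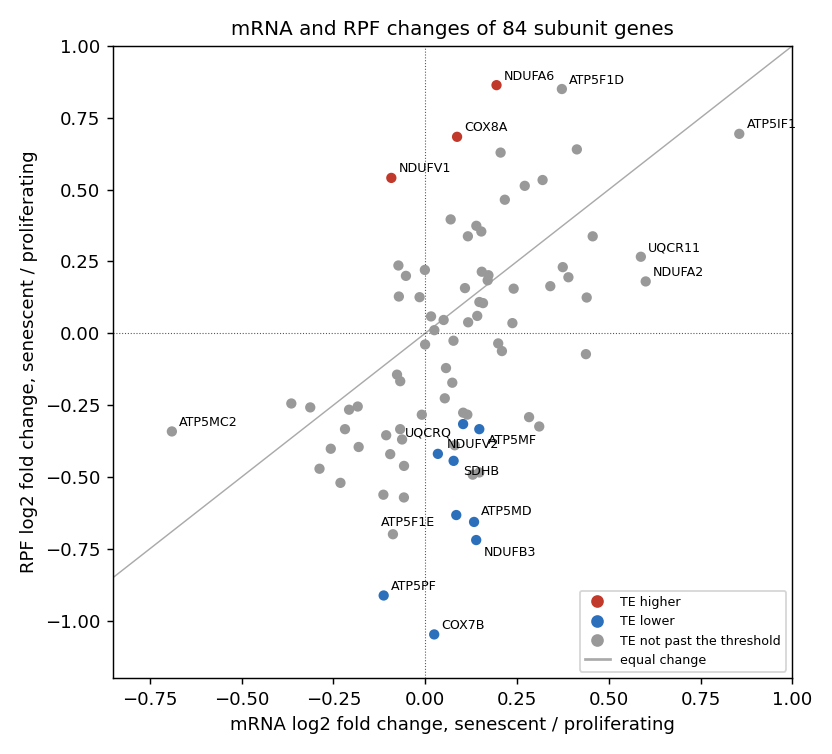
Each point is 1 of the 84 genes tested in both layers, with the mRNA log2 fold change on the horizontal and the RPF log2 fold change on the vertical axis, and a grey line where both changes are equal. Blue points (9 genes lower in TE) lie below the line near an mRNA change of 0, and red points (NDUFA6, COX8A and NDUFV1, higher in TE) lie above it.

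In TE, the largest fall was again that of COX7B. Its RPF level relative to mRNA, as log2 of the ratio of scaled reads, was 1.59, 1.06 and 0.65 in proliferating and 0.04, -0.88 and -0.40 in senescent lysates, with no overlap (-1.01 ± 0.22, adjusted p = 0.00312). It passed without each lysate in turn, as no other of the 12 called members did (-1.38 to -0.88). NDUFB3 was at 1.31, 1.89 and 1.56 in proliferating and 0.68, 0.61 and 1.14 in senescent lysates (-0.87 ± 0.22, adjusted p = 0.011), which did not pass without Pro 2 or Sen 1. ATP5MD was at 1.13, 1.03 and 1.12 in proliferating and 0.50, 0.55 and 0.02 in senescent lysates (-0.73 ± 0.19, adjusted p = 0.0192), and ATP5F1E at 0.08, 0.04 and -0.13 in proliferating and -0.75, -0.88 and -0.65 in senescent lysates (-0.68 ± 0.19, adjusted p = 0.0322), both without overlap. ATP5PF was at 0.33, 0.96 and 0.53 in proliferating and 0.03, 0.45 and -0.24 in senescent lysates (-0.73 ± 0.21, adjusted p = 0.0342), where Sen 2 lay among the proliferating lysates. The other falls were those of SDHB (-0.61 ± 0.21, adjusted p = 0.089), ATP5MF, the f subunit of complex V (-0.56 ± 0.20, adjusted p = 0.11), UQCRQ, a small subunit of complex III (-0.53 ± 0.20, adjusted p = 0.127), and NDUFV2 (-0.49 ± 0.18, adjusted p = 0.115). ATP5MF shares exons with the readthrough gene ATP5MF-PTCD1, so how its reads were split is uncertain.

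Among the rises, NDUFA6 was at 1.73, 0.50 and 0.55 in proliferating and 1.23, 1.33 and 1.51 in senescent lysates (0.73 ± 0.20, adjusted p = 0.0218), with Pro 1 above every senescent lysate. NDUFV1 was at -0.43, 0.30 and 0.25 in proliferating and 0.92, 0.16 and 0.68 in senescent lysates (0.56 ± 0.20, adjusted p = 0.106) and COX8A at 1.01, 0.26 and 0.25 in proliferating and 0.98, -0.44 and 0.74 in senescent lysates (0.48 ± 0.19, adjusted p = 0.143), and in both the groups overlapped through Pro 1 or Sen 2. Without the 2 shallow lysates the 3 rises were 0.81 (NDUFA6), 0.57 (NDUFV1) and 0.63 (COX8A), and all 12 calls held. In all, 7 members were then higher and 10 lower (13.1% of all genes called). Each of the 3 rises lost its call without Pro 2, Pro 3 or Sen 3, and those of NDUFV1 and COX8A also without Sen 1. No leaving-out turned the direction of any of the 12.

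**Figure D4:**
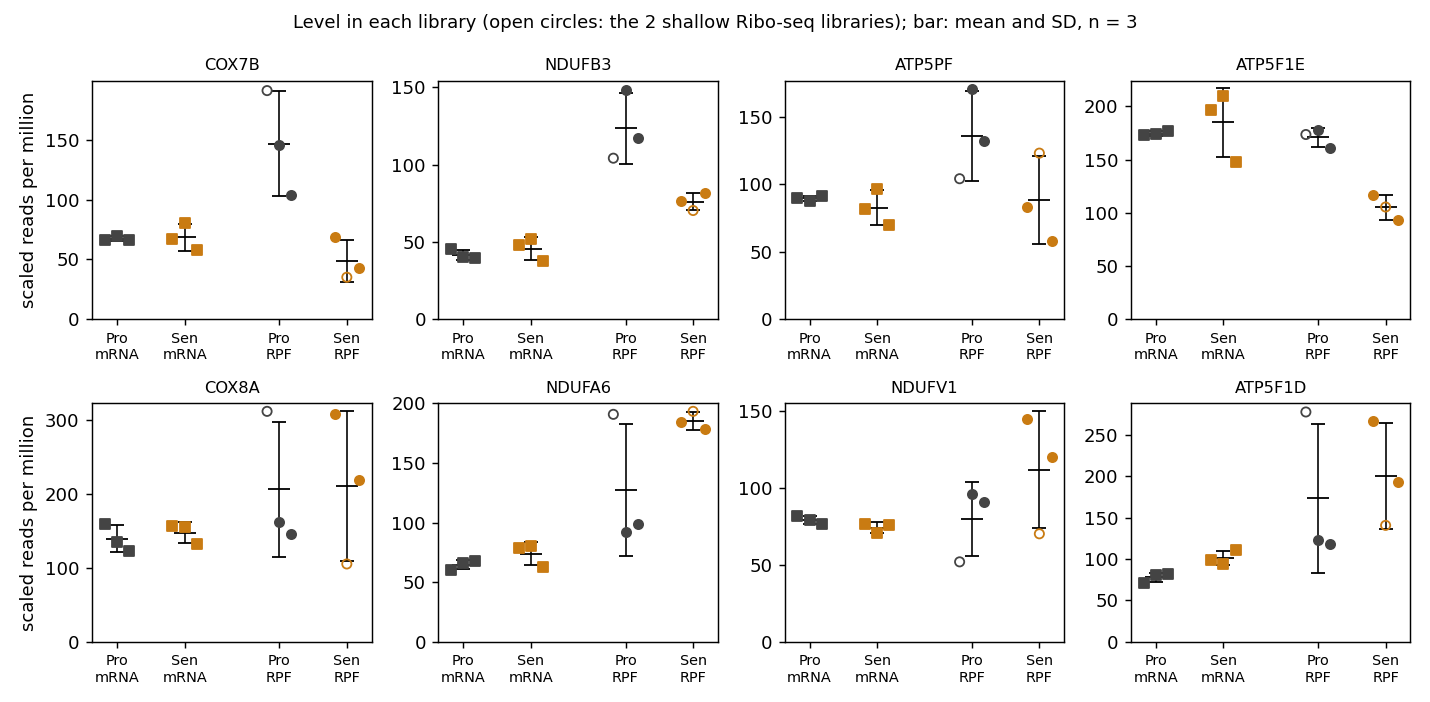
Points give the level of 8 subunit genes in each library, in scaled CPM, for mRNA (squares) and RPF (circles) in proliferating (Pro, grey) and senescent (Sen, orange) cells, with the mean and SD of 3. COX7B, NDUFB3 and ATP5F1E RPF lie lower in every senescent library than in any proliferating one, while for COX8A and ATP5F1D the shallow Pro 1 (open circle) is the highest point and the shallow Sen 2 the lowest senescent RPF point.

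Base composition moved with the RPF results. Members called lower in RPF had coding sequences with a median GC content of 45.4% (37.9% to 57.8%, 22 genes), those called higher 59.4% (49.0% to 68.3%, 14 genes) and those not called 52.1% (48 genes). Over the 84 members the RPF fold change and GC content had a Spearman correlation of 0.68, given as a description across genes that share the same 6 libraries. Over all 7470 genes with a known coding sequence it was 0.45, so that the relation was not peculiar to these genes. For mRNA the values were 0.34 over 87 members and 0.15 over 12545 genes, and for TE 0.46 over 84 members and 0.54 over 7423 genes. The mean GC content of the coding sequences, weighted by RPF reads over all genes, was 53.5%, 52.3% and 52.3% in Pro 1 to 3 and 53.8%, 53.3% and 53.6% in Sen 1 to 3. The shallow Pro 1 stood with the senescent libraries in this. For mRNA reads it was 53.3%, 53.4% and 53.3% against 53.9%, 53.4% and 53.9%.

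With each library's trend on GC content removed, an alternative added after seeing the data, the correlation over members fell to 0.07 in RPF, and 5 members were higher and 25 lower (46.9% of all genes called). All 5 of these rises, NDUFA6, NDUFA1, ATP5IF1, ATP5MC1 and ATP5F1D, and 14 of the 25 falls had been called without the correction. The correction also moved the median fold change of all genes, from -0.01 to -0.08 in mRNA and from -0.002 to -0.05 in RPF. Over all genes, 1625 were then higher and 1878 lower in RPF, and 4113 higher and 5440 lower in mRNA. The counts and signs given here for members sit on that shifted base. COX7B stayed lower in RPF (-0.81, adjusted p = 0.000822) and in TE (-0.79, adjusted p = 0.0244), and NDUFA6 higher in RPF (0.75, adjusted p = 0.000189) and in TE (0.70, adjusted p = 0.0197). COX8A (0.20, adjusted p = 0.346) and ATP5MD (-0.10, adjusted p = 0.697) no longer passed in RPF. NDUFB3 was at -0.40, adjusted p = 0.0811 in RPF and -0.60, adjusted p = 0.123 in TE. Other genes passed in RPF only with the correction, among them SDHA (-0.50, adjusted p = 0.0649), CYC1 (-0.58, adjusted p = 0.00393) and COX5B (-0.45, adjusted p = 0.0171). The RPF changes of NDUFS7 (-0.13, adjusted p = 0.646) and NDUFB7 (-0.15, adjusted p = 0.588) and the mRNA change of NDUFS8 (-0.02, adjusted p = 0.774), rises without the correction, lay below 0 and were not called. In TE 1 member was higher and 8 lower, of which 1 and 5 had been called before (4.65% of all genes called). The TE falls of ATP5F1E (adjusted p = 0.159), ATP5MD (0.515), ATP5PF (0.266) and NDUFV2 (0.461) no longer passed. Nor did the TE rises of COX8A and NDUFV1. COX5B, NDUFA7 and UQCR11 were lower in TE only with the correction. In mRNA 18 were higher and 23 lower, of which 16 and 13 had been called before (76.1% of all genes called). Among the 28 mRNA rises without the correction, those of COX4I1, COX5B, COX6A1, NDUFA6 and UQCRC1 were some that no longer passed. The part of base composition in these changes was not tested beyond this.

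**Figure D5:**
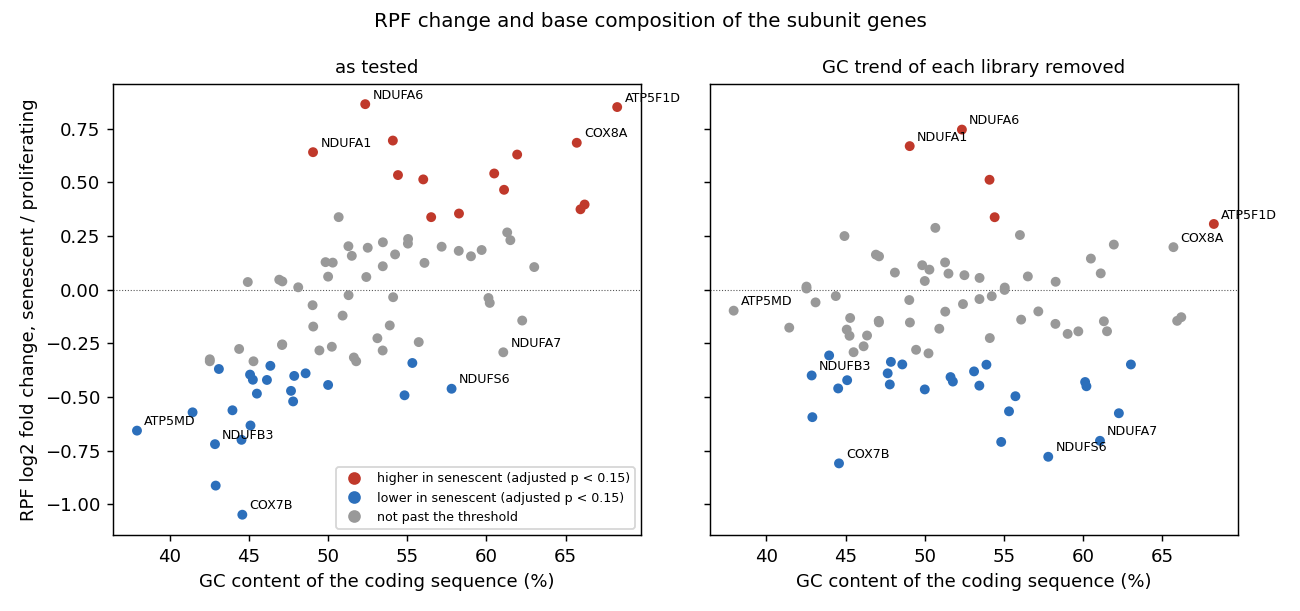
Each point is 1 of 84 subunit genes, with the GC content of its coding sequence in percent on the horizontal axis and its RPF log2 fold change on the vertical axis, as tested (left) and with the GC trend of each library removed (right). On the left, members below 45% GC lie at or below 0 apart from 1 close to it, and the called rises lie at 49.0% and above. On the right, 25 calls below 0 and 5 above it lie between 42.9% and 68.3% GC.

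The RPF level relative to coding length differed widely between subunits that are assembled in equal or fixed numbers. Per kb of coding sequence, the mean RPF level in proliferating cells ran from 30.7 for the readthrough gene ATP5MF-PTCD1 and 34.5 for SDHA to 1358 for NDUFA4. The median was 153 for the 4 complex II genes, 217 for complex III, 219.6 for complex I, 447 for complex V and 611 for complex IV. In senescent cells the medians were 133 for complex II, 230 for complex III, 194 for complex I, 387 for complex V and 574 for complex IV. In the F1 head, which holds equal numbers of α and β subunits, ATP5F1A was at 556 and ATP5F1B at 726 RPF CPM per kb in proliferating cells, and at 409 and 718 in senescent cells. The small subunit ATP5F1E, present once per enzyme, was at 1117 and 687. For a coding sequence as short as that of ATP5F1E (153 bases), reads over the start and stop codons weigh more than in a long one. The deposited RPF counts of SDHA and of ATP5F1E were not whole numbers in 66.7% of libraries, so some of their reads were divided. The means per kb also weigh the shallow libraries like the deep ones. The coding sequences of the 89 genes ran from 153 to 2247 bases with a median of 402, and 66 were under 600 bases.

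The calls not yet described, named here after their values were seen, follow by layer. In RPF the remaining rises were those of NDUFA11, NDUFB10, NDUFA13, NDUFS7 and NDUFB7, between 0.37 and 0.63 on the log2 scale, all in complex I. The remaining RPF falls were those of NDUFC1, NDUFB5, NDUFS6, NDUFB4, ATP5MPL and ATP5PB, between -0.35 and -0.49. In mRNA the remaining rises were those of NDUFC2, NDUFV3, NDUFA3, NDUFC2-KCTD14, NDUFB1, NDUFA7, NDUFB10, ATP5PD, NDUFA13, NDUFA11, ATP5ME, NDUFB11, NDUFS8 and NDUFA8, between 0.14 and 0.44, and the remaining falls those of NDUFA12, NDUFA10 and ATP5PO, between -0.18 and -0.22. The members not called ran from -0.33 to 0.34 in RPF (48 genes) and from -0.11 to 0.15 in mRNA (46 genes). COX6B2 and COX7B2 had too few reads for any test, and COX7A1, NDUFA4L2 and ATP5S too few in RPF. Reads of UQCRH and UQCRHL, which share an exact stretch of 157 bases, and of ATP5MG and ATP5MGL, which share 68, could be split either way by the counting, and so could those of NDUFC2 and its readthrough gene NDUFC2-KCTD14.

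Genes that build or serve the complexes, from lists chosen with earlier results of these data known, are given beside the shares called among all genes tested, which were 73.6% in mRNA (36.6% higher and 37% lower) and 54.4% in RPF (27.5% higher and 26.9% lower). Nothing particular to any list is read from its counts. Among 16 complex I assembly factors 3 were higher and 7 lower in mRNA, and 1 of 9 was higher and 4 lower in RPF. FOXRED1, which acts late in complex I assembly, fell in mRNA (-0.76 ± 0.12, adjusted p = 1.22e-05), and NDUFAF8 rose (0.77 ± 0.08, adjusted p = 1.4e-08). Of 4 complex II assembly factors 3 were higher in mRNA, led by SDHAF1, which helps to mature the iron-sulfur subunit (0.87 ± 0.14, adjusted p = 8.52e-06). Of 6 complex III factors 2 were higher and 3 lower in mRNA, with BCS1L, which inserts the Rieske protein, among the lower (-0.60 ± 0.10, adjusted p = 2.43e-05). Of 26 complex IV factors 9 were higher and 9 lower in mRNA, and of 17 tested in RPF 3 were higher and 5 lower. SCO2, which delivers copper, rose in RPF (1.15 ± 0.29, adjusted p = 0.000913), while COX20, which stabilises a mitochondrially encoded subunit, fell (-1.31 ± 0.35, adjusted p = 0.00178). LRPPRC, which stabilises mitochondrial mRNAs, fell in mRNA (-0.56 ± 0.07, adjusted p = 7.82e-07). Of 5 complex V factors 1 was higher and 1 lower in mRNA.

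The same shares, 73.6% in mRNA and 54.4% in RPF, are the background for 3 further lists. Among 19 genes for electron carriers and coenzyme Q synthesis 5 were higher and 5 lower in mRNA, and of 14 tested in RPF 2 were higher and 5 lower. COQ3, a methyltransferase of coenzyme Q synthesis, fell in mRNA (-1.26 ± 0.16, adjusted p = 4e-07), and GPD2, the mitochondrial glycerol-3-phosphate dehydrogenase, fell in RPF (-1.34 ± 0.32, adjusted p = 0.000456). Of 13 tested regulators of mitochondrial gene expression 3 were higher and 7 lower in mRNA, and of 10 tested in RPF 2 were higher and 5 lower. TFAM, which packs mitochondrial DNA and acts in its transcription, fell in RPF (-1.53 ± 0.36, adjusted p = 0.000359) and mRNA (-0.84 ± 0.10, adjusted p = 3.33e-07). Its RPF level was 52.1, 25.2 and 39.3 CPM in proliferating and 13.4, 17.6 and 7.78 in senescent libraries. ESRRA, a nuclear receptor known to drive genes of oxidative phosphorylation, rose in mRNA (0.35 ± 0.10, adjusted p = 0.00519) and RPF (0.75 ± 0.38, adjusted p = 0.102). Of 14 TCA cycle enzymes 3 were higher and 5 lower in each layer. FH, fumarate hydratase, fell in mRNA (-0.67 ± 0.08, adjusted p = 1.66e-07) and RPF (-0.99 ± 0.17, adjusted p = 2.99e-06), and OGDH, of the 2-oxoglutarate dehydrogenase complex, rose in both (0.38 ± 0.08, adjusted p = 0.000241 and 0.70 ± 0.18, adjusted p = 0.000861).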

How the data were processed

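RNA-seq and Ribo-seq libraries of 3 proliferating and 3 senescent IMR90 lysates were analysed. The authors deposited expected counts per symbol and region (5′ UTR, CDS, 3′ UTR), which need not be whole because reads can be divided between symbols. The submitters' processing notes name cutadapt 1.18, Bowtie 1.0.1, SAMtools 1.8 and DESeq2 1.22.2, and the study's methods put DESeq2 to variance-stabilised counts for anota2seq, neither of which was used here. What the other tools did for these libraries, the genome build and the annotation are not given in the sources used here. Counts were rounded to whole numbers. Genes with low counts were removed by filterByExpr, and libraries were scaled by TMM within each library type. The quasi-likelihood test of edgeR 4.0.16 (R 4.3.3) gave mRNA and RPF changes over all genes kept, with Benjamini-Hochberg adjustment, and TE was the interaction of state and library type with the lysate as a block. The threshold, an adjusted p of 0.15, followed the study's methods. The scripts were tested on simulated data. Alternatives were DESeq2 1.42.0, other scalings, filters and thresholds, leaving out libraries, a replicate block, and a GC trend removed per library by lowess (span 0.5), which was added after seeing the data. GC content came from GENCODE release 44 coding sequences on GRCh37, found for all 89 members. Genes named were fixed core subunits and isoforms, the 2 highest and 2 lowest changes per complex in mRNA and RPF, and every TE call, with a few pathway genes named after their values were seen. A gene that this rule names is not reported here. The members and lists were chosen with earlier results of these data known. Nothing says which culture isolate a lysate came from, so p-values measure the spread between these lysates. The SE of a fold change comes from the same fits and includes that spread, while floors cover counting error only.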

Additional observations from a re-analysis of the deposited data

Results flagged for a closer look

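Reads outside the CDS entered none of the RPF comparisons. Of the members' Ribo-seq reads on mRNA regions, 8.08% lay in the 3′ UTR in Sen 2, above the 0.518% to 1.82% of the 3 proliferating libraries and the 0.630% and 0.699% of Sen 1 and Sen 3. The Sen 2 value rests on 54.3 reads, 39.3 of them on ATP5MC3, the member with the most 3′ UTR reads in every Ribo-seq library (98.8 of 144 in Pro 3). Groups of 3 libraries were too small for a check of single outlying values.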

How the results depend on the processing

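The RPF and TE calls are limited by depth, since 2 of 6 Ribo-seq libraries held 54421 and 54708 CDS reads. With the GC trend removed, 3 called rises were below 0 and not called, NDUFS8 in mRNA (-0.024) and NDUFS7 (-0.13) and NDUFB7 (-0.15) in RPF. No other value called without the correction changed sign under any alternative run. NDUFS7 in mRNA (-0.14, adjusted p = 0.0741) and NDUFS8 in RPF (-0.35, adjusted p = 0.11), above 0 and not called before, were lower with the correction. Percentages in brackets below are the share of all genes called in that layer. Library totals gave 15 members higher and 28 lower in mRNA (74.7%) and 34 lower in RPF (56.2%). Removing the GC trend gave 18 higher and 23 lower in mRNA (76.1%), 5 higher in RPF (46.9%) and 1 higher in TE (4.65%). It also moved the median fold change of all genes to -0.08 in mRNA and -0.05 in RPF. DESeq2 gave 0 higher and 4 lower in RPF (15.5%) and 0 in TE in either direction (0.375%). A minimum of 10 counts in every library left 12 members. With that filter 2 were higher and 4 lower in RPF (73.7%), and 1 was higher and 4 lower in TE (29.1%). Keeping every gene with at least 1 read gave 1 higher and 5 lower in TE (3.25%). An adjusted p under 0.05 gave 13 lower in RPF (41.8%), and 1 higher and 5 lower in TE (3.09%). Without the 2 shallow libraries 7 were higher in TE (13.1%).

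Replicate numbers did not pair the states: same-numbered libraries had correlations of deviations between -0.07 and 0.09. With the replicate number as a block, 2 members were higher in RPF and 18 lower. Of all genes, 31.1% were then called in RPF, against 54.4% without that block. Without the replicate block, 5 members were higher in TE and 13 lower. Of all genes, 18% were then called in TE, against 9.37% with the block. Leaving out each library in turn gave 21 to 46 members higher and 10 to 23 lower in mRNA, 4 to 15 higher and 11 to 33 lower in RPF, and 0 to 5 higher and 2 to 15 lower in TE. In mRNA, 46 were higher without Sen 3 and 23 lower without Sen 2. In RPF, 4 were higher without Sen 1, 5 without Pro 3 and 8 without Pro 2, while 33 were lower without Pro 1, 12 without Pro 3 and 11 without Sen 3. In TE, 0 were higher without Pro 2 or Pro 3 and 1 without Sen 1 or Sen 3, 5 were higher without Sen 2, and 15 were lower without Pro 1, 4 without Pro 3 or Sen 1 and 2 without Pro 2 or Sen 3. The share of all genes called shifted too. In TE it was 14.6% without Pro 1, 1.69% without Pro 2 and 2.23% without Pro 3. Without Sen 1 to 3 the TE share was 2.22%, 9.44% and 1.93%. In RPF it was 56.9%, 41.9% and 35.4% without Pro 1 to 3, and 33.2%, 54.0% and 43.1% without Sen 1 to 3. In mRNA it ran from 68.6% to 72.6%. The cause of these shifts was not tested.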

Other observations

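UQCRBP1, a pseudogene of UQCRB that was left out of the members, held 3103 reads over the 12 libraries, among them 103 RPF reads in Pro 3 and 66.5 in Sen 1. How reads were divided between it and UQCRB is not given in the sources used here.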
